A study of Mus musculus with 8 samples.

Results

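AP-1 is a pair of leucine zipper transcription factors, one a Jun protein and the other a Jun, Fos or Atf partner, and its genes belong with Egr1 and Ier2 to the immediate early response. The 10 genes described here, Jun, Junb, Jund, Fos, Fosb, Fosl1, Fosl2, Atf3, Egr1 and Ier2, were selected by symbol after a higher level of Jund had been seen in these same libraries, so that the rest of the family could be set beside it. They are 10 of the 53465 genes in the deposited count table, and all 10 were among the 15388 genes that passed the filter on low counts. Because the measured contrast chose them, their levels, their fold changes and the calls of the fit are given as a description, and none of them is evidence about the family.

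RNA of heart ventricles from mouse embryos at embryonic day 15.5 was sequenced after poly(A) selection, and the labels give 1 ventricle per replicate. The 4 control libraries carry the label WT. The other 4 carry the genotype Nrg-1flox;Cdh5-CreERT2, an allele of neuregulin-1 that can be deleted by a tamoxifen-inducible Cre driven from the endothelial Cdh5 promoter. Zygosity of the flox allele, the time of tamoxifen, and any Cre or tamoxifen in the controls are not given in the sources used here.

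The targeted gene, Nrg1 (ENSMUSG00000062991), read 5.46, 4.64, 4.08 and 5.32 CPM (expected counts scaled to the size of the library) in WT and 6.83, 6.33, 6.16 and 5.36 CPM in the libraries labelled Flox. Flox 1, 2 and 3 were above every WT library and Flox 4 was between WT 4 and WT 1, so the gene was not lower in the Flox-labelled libraries, and its log2 fold change was 0.34 (SE 0.12, edgeR quasi-likelihood FDR 0.311). The gene-level count does not tell whether a floxed exon was lost, so groups are named by their labels and every direction below rests on those labels. Libraries held 16761763 to 24144272 expected counts. Xist read 133.6, 206.1, 139.7 and 0.18 CPM in WT, against 327.3, 282.4, 263.0 and 103.0 CPM in the Flox-labelled libraries, while the sum of 4 Y-linked genes ranged from 69.3 to 171.2 CPM in WT and from 42.9 to 119.9 CPM in the Flox-labelled libraries. Both kinds of marker were present at 1 CPM or more in 7 of 8 libraries, all but WT 4, so these 7 held RNA of both sexes, which goes against 1 ventricle of 1 embryo per library. How many embryos went into a library is therefore not known here. The ranges overlapped between the groups. Fits that take this Y-linked sum as a covariate are given below for each of the selected genes and for some of the gene lists.

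Jun proteins pair with one another or with Fos proteins, whereas Fos proteins do not form stable pairs among themselves and need a Jun partner to bind DNA. Most of these genes are known for transcripts that appear within minutes of a growth factor, stretch or stress signal and decay quickly, while Jund is known as the steadily expressed member. In cardiac tissue the family has been studied mainly in load and stress responses.

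The 8 leucine zipper genes share a DNA-contacting basic region, and its coding bases show how alike and how distinct their transcripts are. The stretches below hold 27 bases, or 9 codons, of each coding sequence in GRCm38 with GENCODE M21 transcripts, and capitals mark the 13 positions that are identical in all 8 genes.
Jun: AAccgcaTtGCcGCctCcAAgTGccGg
Junb: AAcaggcTgGCgGCcaCcAAgTGccGg
Jund: AAccgcaTcGCcGCctCcAAaTGccGc
Fos: AAtaagaTgGCtGCagCcAAgTGccGg
Fosb: AAcaagcTgGCtGCagCtAAgTGcaGg
Fosl1: AAcaagcTaGCaGCtgCtAAgTGcaGa
Fosl2: AAcaagcTaGCtGCagCcAAgTGtcGg
Atf3: AAtaaaaTtGCtGCtgCcAAgTGtcGa
Over a 207-base window that spans the basic region and the zipper, Jun was 76.3% and Junb 74.9% identical to Jund, whereas Fos was 41.5% identical to it. Fosl2 was 77.3%, Fosb 75.8% and Fosl1 67.6% identical to Fos, and Atf3 58.9%. In spite of this likeness, none of the 45 pairs of the 10 genes had a stretch of 60 bases in common, the length of the reads, so no read of full length matches the transcripts of both genes of a pair exactly.

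Jund and Jun were the members whose libraries separated by label. Jund, a Jun protein that restrains growth in several cell types, read 99.0, 79.4, 89.5 and 91.3 CPM in WT, against 110.3, 101.6, 116.1 and 112.7 CPM in the Flox-labelled libraries. All 4 Flox-labelled values lay above all 4 WT values, with WT 2 lowest of all and Flox 2 lowest of its group. The means were 89.8 ± 8.08 and 110.2 ± 6.19 CPM (SD, n = 4 in each group), and the group effect on the log2 scale was 0.30 (SE 0.06, 95% confidence interval from 0.17 up to 0.42). Jund (ENSMUSG00000071076) lies at chr8:70698949-70700616 on the plus strand of GRCm38 in a single exon, and its exonic GC content of 67.2% was the highest of the 10 genes.

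Jun, the founding partner of AP-1, read 95.7, 83.1, 83.1 and 89.6 CPM in WT, against 99.6, 96.5, 96.9 and 98.7 CPM in the Flox-labelled libraries. The groups did not overlap, but WT 1 came close to Flox 2, the lowest Flox-labelled library. The means were 87.9 ± 6.06 and 97.9 ± 1.46 CPM (SD, n = 4), which makes 0.16 on the log2 scale, with an SE of 0.04 and a 95% confidence interval from 0.06 up to 0.25. Jun (ENSMUSG00000052684) lies at chr4:95049034-95052222 on the minus strand.

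Junb, a Jun protein with weaker activating capacity, was much lower, with 5.83, 6.45, 5.69 and 7.82 CPM in WT, against 5.86, 7.72, 7.28 and 9.01 CPM in the Flox-labelled libraries. The groups overlapped, since Flox 1 fell among the lower WT libraries and WT 4 was above 3 of the 4 Flox-labelled ones. The log2 fold change was 0.21 (SE 0.14), and its 95% confidence interval of -0.09 to 0.51 covered 0. Junb (ENSMUSG00000052837) lies at chr8:84974484-84978718 on the minus strand.

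In the edgeR fit over all genes, 81 of 15388 genes (0.526%) had a false discovery rate (FDR) below 0.05, and 1 of the 10 members, Jund, was among them with an FDR of 0.0499. That FDR was below 0.05 without WT 1 and above it without WT 2, WT 3, WT 4 or any 1 of the Flox-labelled libraries, reaching 0.179, while the log2 fold change stayed between 0.24 and 0.34. The WT and Flox-labelled ranges stood apart in 931 of 15388 genes (6.05%) and in 2 of the 10 members, Jun and Jund. As Jund is the gene from which the list was built, nothing about the family is read from either count. Of the other 9 members none had an FDR below 0.05, and 3 had an unadjusted p below 0.05, as did 1622 of all 15388 genes (10.5%). These 3 were Jun and Atf3 with higher and Fos with lower means in the Flox-labelled libraries. Of the 10 members, DESeq2 gave an FDR below 0.05 to Jund alone, and it gave one to 198 of all 15388 genes.

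**Figure D1:**
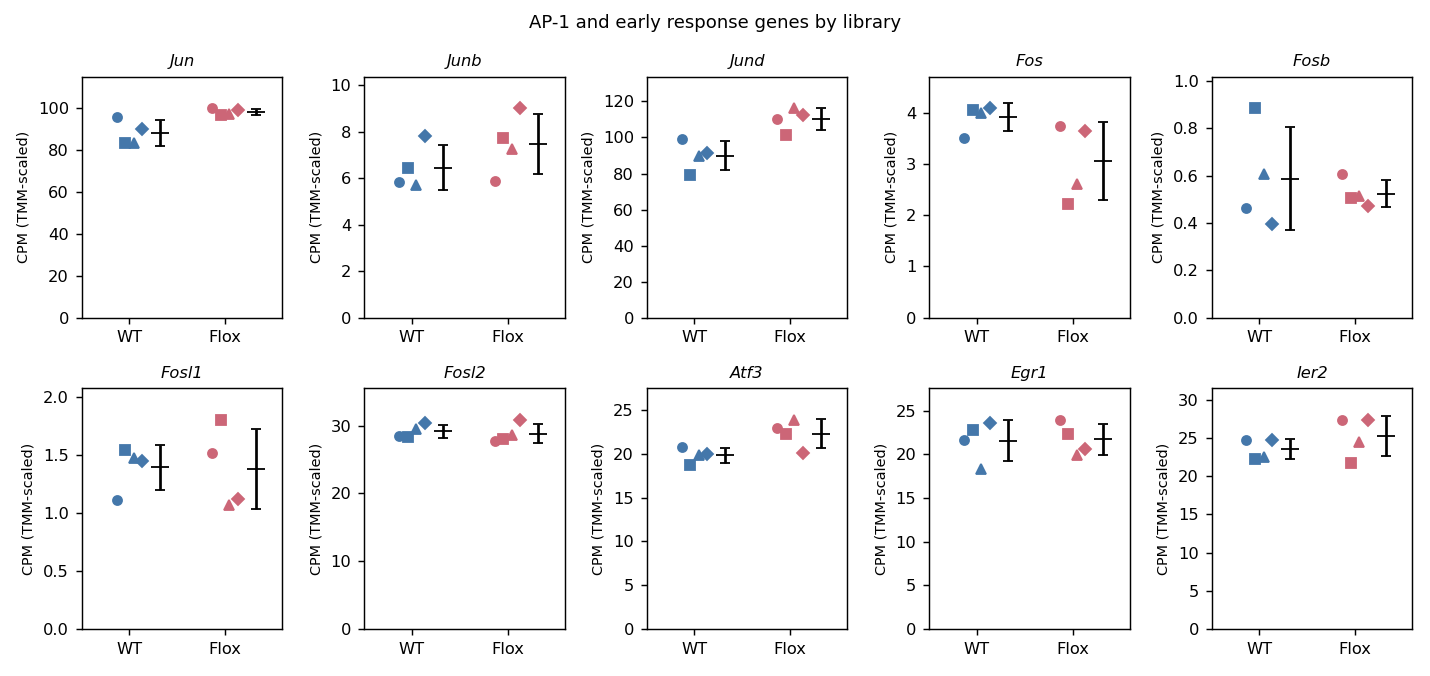
Level of each of the 10 genes in each library, in CPM after TMM scaling, on linear axes that start at 0. Symbols mark replicate numbers 1 to 4 (circle, square, triangle, diamond), and black bars give the mean ± SD of 4 libraries. The Flox-labelled libraries lie above all WT libraries for Jun and Jund, and the groups overlap for the other 8 genes.

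None of the 4 Fos genes had library ranges that stood apart by label. Fos, the prototype early response gene, read 3.52, 4.06, 4.00 and 4.09 CPM in WT, against 3.74, 2.22, 2.61 and 3.65 CPM in the Flox-labelled libraries. Flox 2 and Flox 3 were below every WT library, while Flox 1 and Flox 4 lay above WT 1, so the groups overlapped. The means were 3.92 ± 0.27 and 3.06 ± 0.76 CPM (SD, n = 4), from 53 to 93 expected counts per library. On the log2 scale this was -0.37, with an SE of 0.17 and a 95% confidence interval from -0.74 up to -0.0043, which became -0.24 without Flox 2 and -0.19 once the Y-linked sum entered as a covariate. Fos (ENSMUSG00000021250) lies at chr12:85473890-85477273 on the plus strand.

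Fosl2, also called Fra-2, was the most abundant Fos gene and the most even of the 10. It ranged from 28.3 to 30.4 CPM in WT and from 27.8 to 30.8 CPM in the Flox-labelled libraries, so that the WT range lay inside the other. Its log2 fold change was -0.02 with a 95% confidence interval of -0.12 to 0.08. Fosl2 (ENSMUSG00000029135) lies at chr5:32135801-32157842 on the plus strand.

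Fosb and Fosl1, the other 2 Fos genes, had few counts. Fosb had 8 to 20 expected counts per library, or 0.40 to 0.88 CPM in WT and 0.47 to 0.61 CPM in the Flox-labelled libraries, and its log2 fold change was -0.16 (95% confidence interval -0.85 to 0.52). Fosl1, also called Fra-1, had 19 to 43 expected counts, or 1.11 to 1.55 CPM in WT and 1.07 to 1.80 CPM in the Flox-labelled libraries, and its log2 fold change was -0.01 (95% confidence interval -0.50 to 0.48). Both intervals are wide at these counts, and a change of the size seen for Jund was not detectable at this depth in either gene. Fosb (ENSMUSG00000003545) lies at chr7:19302696-19310051 on the minus strand and Fosl1 (ENSMUSG00000024912) at chr19:5447547-5455946 on the plus strand.

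Atf3, a stress-induced partner of Jun proteins, read 20.8, 18.7, 19.8 and 20.03 CPM in WT, against 23.0, 22.3, 23.9 and 20.13 CPM in the Flox-labelled libraries. Flox 1, 2 and 3 were above every WT library, and Flox 4 fell between WT 4 and WT 1. The means were 19.8 ± 0.86 and 22.3 ± 1.602 CPM (SD, n = 4), or 0.17 on the log2 scale (SE 0.06, 95% confidence interval from 0.04 up to 0.31). Atf3 (ENSMUSG00000026628) lies at chr1:191170296-191218039 on the minus strand.

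Egr1, a zinc finger factor induced through serum response factor, ranged from 18.3 to 23.6 CPM in WT and from 19.96 to 23.96 CPM in the Flox-labelled libraries. Its log2 fold change was 0.01 with a 95% confidence interval of -0.17 to 0.19. Ier2, a small nuclear early response protein, ranged from 22.3 to 24.7 CPM in WT and from 21.8 to 27.4 CPM in the Flox-labelled libraries, with a log2 fold change of 0.09 (95% confidence interval -0.06 to 0.25). Flox 1 and Flox 4 were above every WT library for Ier2 and Flox 2 was below all of them, so the groups overlapped. Egr1 (ENSMUSG00000038418) lies at chr18:34859823-34864984 on the plus strand and Ier2 (ENSMUSG00000053560) at chr8:84661331-84662852 on the minus strand.

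**Figure D2:**
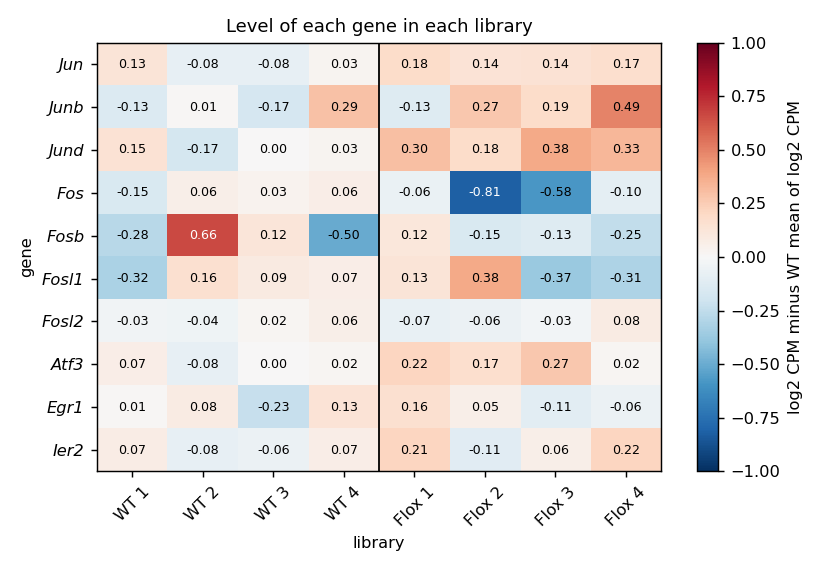
Level of each gene (vertical axis) in each library (horizontal axis) as the difference of its log2 CPM from the WT mean of log2 CPM, with the value printed in each cell and a vertical line between the groups. Jun and Jund are positive in all 4 Flox-labelled libraries, Fos is negative in all 4 with -0.81 in Flox 2, and Fosb and Fosl1 scatter in both groups.

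Levels were ranked between genes after division by exonic length, as CPM per kilobase. In WT, Jund led with 53.8 ± 4.84, followed by Jun with 27.6 ± 1.90, Ier2 with 15.5 ± 0.87 and Atf3 with 9.20 ± 0.40 (SD, n = 4). Egr1 stood at 4.82 ± 0.52, Fosl2 at 3.01 ± 0.10, Junb at 2.80 ± 0.42 and Fos at 1.67 ± 0.11 CPM per kilobase, and Fosl1 and Fosb closed the order at 0.69 ± 0.10 and 0.09 ± 0.03. Fosl2 and Junb were the only neighbours in this order within 1 SD of each other. In the Flox-labelled libraries Junb, at 3.25 ± 0.56, stood before Fosl2, at 2.97 ± 0.15, again within 1 SD, and the order was otherwise the same.

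Summed over the family, Jun, Junb and Jund together gave 200.5, 168.9, 178.3 and 188.7 CPM in WT, against 215.8, 205.9, 220.3 and 220.4 CPM in the Flox-labelled libraries, with a ratio of the means of 1.17. The 4 Fos genes together gave 35.1 ± 1.17 CPM in WT and 33.7 ± 1.63 CPM in the Flox-labelled libraries (SD, n = 4), a ratio of 0.96. These totals are sums of CPM not divided by length, so longer genes weigh more in them. Jund made up 48.7 ± 1.38% of this Jun total in WT and 51.1 ± 1.37% in the Flox-labelled libraries, and these shares overlapped. Means in WT and Flox-labelled libraries were 89.8 and 110.2 CPM for Jund, 87.9 and 97.9 for Jun, and 6.45 and 7.47 for Junb. The Jun total includes Jund, the gene from which the list was built, so it is a description only. The Fos total, most of which in CPM is Fosl2, had overlapping groups.

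The difference in Jund varied with the fit more than that of Jun. When trends of each library with GC content and transcript length were taken out, the log2 fold change of Jund was 0.17 (SE 0.05, FDR 0.151), that of Jun 0.17 (SE 0.04) and that of Atf3 0.18 (SE 0.06). The 564 tested genes with at least 60% exonic GC had a median log2 fold change of 0.04 before and 0.01 after this correction, against -0.0012 over all tested genes before it. Once the Y-linked sum entered as a covariate, Jund gave 0.38 (SE 0.06, FDR 0.0607), Jun 0.19 (SE 0.05) and Ier2 0.22 (SE 0.07). Junb went from 0.21 to 0.34 (SE 0.17), Fosb from -0.16 to -0.51 (SE 0.39) and Fosl1 from -0.01 to -0.21 (SE 0.29). Atf3 went from 0.17 to 0.15, and its 95% confidence interval of -0.02 to 0.32 with the covariate covered 0. The unadjusted edgeR p of Jund was 7.1e-05 in this fit and 0.000256 with the group alone. Genes called over the whole table went from 81 with the group alone to 16 in this fit. The part of GC content or of the sex markers in the difference of Jund was not tested further.

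**Figure D3:**
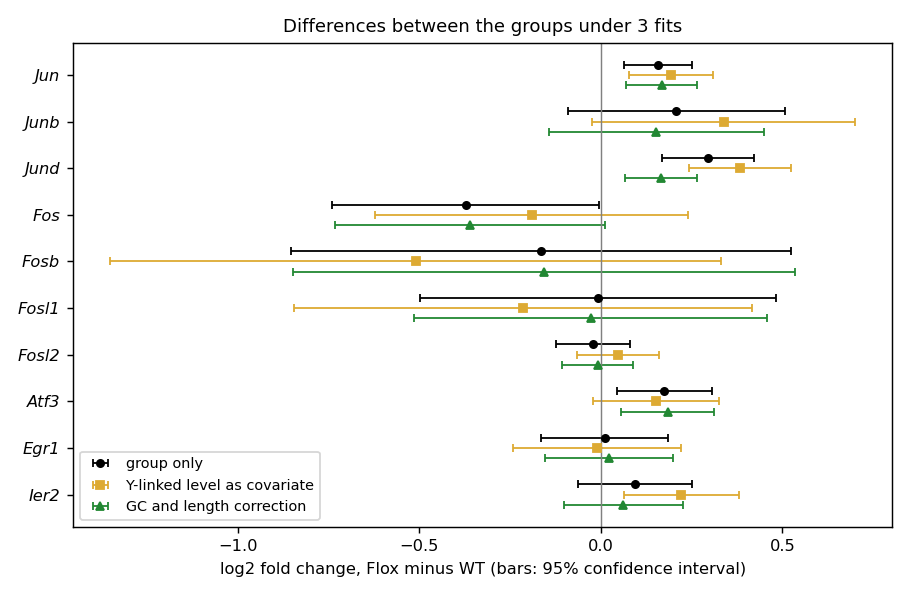
Log2 fold change of each gene, Flox-labelled minus WT, under a fit with the group alone (black circles), with the Y-linked sum added (yellow squares) and with a correction for GC content and length (green triangles); bars are 95% confidence intervals. Jund moves from 0.30 to 0.17 under the correction while Jun stays between 0.16 and 0.19 in the 3 fits.

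Several members share exonic bases with a gene on the opposite strand, which bears on how their reads were counted. The library kit keeps strand, but the strand setting of the counting is not given in the sources used here. Jund shares 877 bases, 52.6% of its length, with Gm11175 (ENSMUSG00000080058, chr8:70699162-70700080, minus strand), an antisense gene model whose exons lie wholly within Jund. Gm11175 has a spliced transcript, and its junction is shown because it is what separates the transcript from Jund in sequence. The printed stretch runs from chr8:70699645 down to chr8:70699466 on the minus strand, where it skips 120 bases of the Jund coding sequence, and capitals mark its second exon.
Gm11175-202 junction: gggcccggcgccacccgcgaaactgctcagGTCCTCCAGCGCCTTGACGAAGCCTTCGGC
The 120 skipped bases, shown on the plus strand as Jund reads them at chr8:70699496-70699615, had a GC content of 77.5% and were flanked by a direct repeat of 5 bases, acctg.
Jund bases skipped by Gm11175-202: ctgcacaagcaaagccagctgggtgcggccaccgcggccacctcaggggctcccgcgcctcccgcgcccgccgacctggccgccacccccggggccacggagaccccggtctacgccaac
Of the 60-base windows of the spliced transcript, 295 of 349 were identical to Jund on the opposite strand and 54 were not, and of the unspliced transcript 484 of 484 were identical.

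Gm11175 itself read 1.06, 0.75, 0.61 and 0 CPM in WT, against 5.16, 3.78, 6.39 and 7.59 CPM in the Flox-labelled libraries. The groups did not overlap, and the means were 0.61 ± 0.45 and 5.73 ± 1.64 CPM (SD, n = 4, edgeR FDR 0.0109, below 0.05 in 17 of 18 alternative settings). Its counts were 0 to 23.1 in WT and 90.5 to 136.8 in the Flox-labelled libraries. Outside 54 of the 349 windows of the spliced transcript, its 60-base stretches were identical to Jund on the opposite strand. The counts of Gm11175 thus do not tell which gene such reads came from, and this was not tested. Jund had expected counts that were not whole numbers in 7 libraries, and in all 7 of these the sum of Jund and Gm11175 was whole within 1e-06. The software had thus divided single reads between these genes of opposite strands, and Gm11175 received 0 to 1.07% of the sum in WT and 3.60 to 6.30% in the Flox-labelled libraries. The sum of both read 100.0, 80.1, 90.1 and 91.3 CPM in WT, against 115.5, 105.4, 122.5 and 120.3 CPM in the Flox-labelled libraries. Its log2 fold change was 0.36 (SE 0.06) against 0.30 (SE 0.06) for Jund alone, so the difference was at least as large with the divided reads counted together.

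Fosl1 shares 1163 bases, 57.2% of its length, with Ccdc85b (ENSMUSG00000095098, chr19:5453180-5457894, minus strand), which encodes a coiled-coil protein. Ccdc85b read 7.40, 5.83, 5.48 and 6.68 CPM in WT, against 9.05, 9.02, 11.5 and 10.54 CPM in the Flox-labelled libraries, without overlap of the groups. Its log2 fold change was 0.66 (SE 0.12, edgeR FDR 0.0338, below 0.05 in 12 of 18 alternative settings), whereas Fosl1 stood at -0.01. Expected counts of both genes were whole numbers in every library, so no division of reads between them was visible. The sum of the pair read 7.74 ± 0.71 CPM in WT and 11.4 ± 0.92 CPM in the Flox-labelled libraries (SD, n = 4), of which Ccdc85b held 78.8 to 87.0% in WT and 83.3 to 91.5% in the Flox-labelled libraries. Counted together, the pair had a log2 fold change of 0.56 (SE 0.09), which lay in Ccdc85b as the counts were assigned. Of 4656 windows of 60 bases in the transcript Ccdc85b-201, 1049 were identical to Fosl1 on the opposite strand. Whole counts do not tell which gene such reads came from, and this was not tested.

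Jun shares 232 bases with Junos on the opposite strand, and reads were divided there too, since the sum was whole in all 7 libraries in which Jun was not. Junos took at most 0.69% of that sum in any library, and the log2 fold change of Jun and Junos together was 0.15 (SE 0.04). Junb shares 173 bases with Prdx2, a peroxidase gene at 413.4 ± 14.8 CPM in WT and 404.5 ± 8.12 CPM in the Flox-labelled libraries. Prdx2 made up 97.8 to 98.7% of the Junb and Prdx2 sum, so the sum, with a log2 fold change of -0.03, carries no information on Junb. The other 6 members share no exonic bases with another gene of the table.

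**Figure D4:**
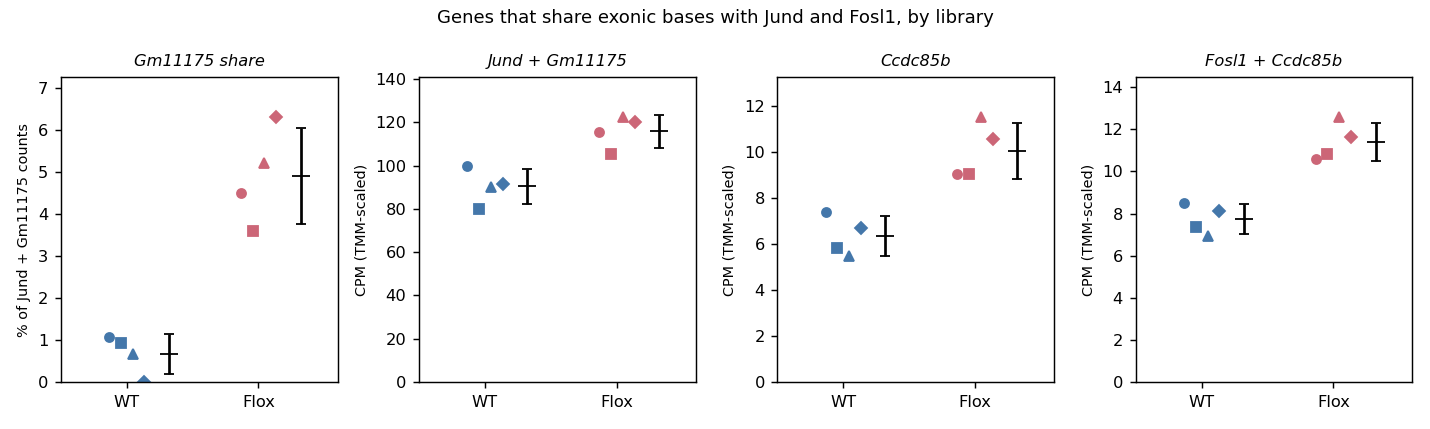
From left to right, the percentage of the Jund and Gm11175 counts that went to Gm11175, and the levels of Jund plus Gm11175, of Ccdc85b and of Fosl1 plus Ccdc85b in CPM, per library on linear axes from 0. Symbols mark replicate numbers and bars the mean ± SD of 4 libraries, and in all 4 panels every Flox-labelled library lies above every WT library.

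Promoter sequence is shown for the 3 members whose upstream bases held a motif bound by AP-1 or ATF and CREB factors, to set this known wiring beside the levels. RefSeq promoters of GRCm38.p6 were used for 7 of the 10 members, and 250 bases before each start were searched on both strands for 5 motifs. Fosl1, Egr1 and Ier2 were not among them. These were the AP-1 site TGACTCA and its variant TGACATCA, the ATF and CREB site TGACGTCA with its shorter core TGACGT (which lies within it), and the EGR site GCGGGGGCG. Capitals mark the match in the last 120 bases before the start.
Jun, chr4:95052223-95052342, minus strand: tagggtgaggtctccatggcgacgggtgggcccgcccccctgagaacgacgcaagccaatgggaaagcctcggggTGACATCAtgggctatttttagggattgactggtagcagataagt
Fos, chr12:85473770-85473889, plus strand: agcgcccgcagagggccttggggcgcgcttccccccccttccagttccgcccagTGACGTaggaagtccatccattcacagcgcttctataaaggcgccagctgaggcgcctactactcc
Atf3, chr1:191183334-191183453, minus strand: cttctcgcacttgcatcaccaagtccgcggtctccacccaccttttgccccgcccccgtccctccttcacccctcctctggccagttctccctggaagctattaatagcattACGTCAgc
TGACATCA in Jun is present in 2.93% of 32851 promoters, TGACGT in Fos and, reversed, in Atf3 in 6.47%, and GCGGGGGCG, found in Fosb and Fosl2, in 2.57%. TGACTCA, present in 4.46% of promoters, and TGACGTCA, in 1.55%, were in none of the 7, and these 250 bases of Jund and Junb held none of the motifs. The RefSeq start of Jund lies 1210 bases, that of Fosl2 671 bases and that of Atf3 34706 bases from the GENCODE start of the gene. Of the 3 genes with a match to an AP-1 or ATF and CREB motif, Jun and Atf3 had higher and Fos lower means in the Flox-labelled libraries. Fosb and Fosl2, which had the EGR site, had log2 fold changes of -0.16 and -0.02. Whether a match bears on these levels was not tested.

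Across the 8 libraries, members were also compared in how they varied together. Jun and Jund separate by group, so no pooled correlation is given for their pairs. After the group means were taken out, Jun and Jund had an r of 0.73 and Jund and Fosl1 one of -0.79. Fos and Ier2 had 0.77, and Junb and Fosl2 0.75. These were picked as the largest absolute values among 45 pairs, as a description over 8 libraries with no test. Other pairs lay between these values and 0. They went from Jund and Fosb (-0.69), Jun and Fosb (-0.66) and Jund and Ier2 (0.63) to Jund and Fos (0.08) and Jun and Junb (-0.01). Fos and Atf3 had -0.43. Fosl1 had only 19 to 43 expected counts per library. Over all libraries, with the group difference left in, none of the 28 pairs of the other members had an unadjusted p below 0.05 for Pearson's r by exact two-sided permutation, and the lowest was that of Fos and Atf3 (r = -0.70, exact p = 0.0537, adjusted over 45 pairs 0.604). Its Spearman rho was -0.74 (exact permutation p = 0.0458, adjusted over 45 pairs 0.516). Pearson's r of this pair was -0.52 without the 2 libraries farthest from the median of Fos. Fos and Egr1, which answer to the same serum response pathway, had an r of 0.09 (exact permutation p adjusted over 45 pairs = 0.941) and a rho of 0.36 (unadjusted exact permutation p = 0.389).

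The genes whose log2 CPM followed that of Jund most closely over the 8 libraries were Eif1ax (r = 0.975), Fam20c (0.970), Cdc20 (0.968), Arfip2 (0.965) and Hipk3 (0.962). Among 12855 genes compared, 78 had an r above 0.9 with Jund. For Fos they were Rap1b (r = 0.977), Gpr161 (0.958), Sh3d19 (0.957), Pigs (0.9504) and Ggt5 (0.943), and 21 of 12856 genes had an r above 0.9. These values only rank likeness of pattern over 8 libraries of 2 groups. They include the group difference for which Jund was selected and carry no test.

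Genes around AP-1 were read from lists against the whole table, in which 49.4% of tested genes had a log2 fold change above 0. Of 14 tested leucine zipper partners outside the 10 members, none had an edgeR or DESeq2 FDR below 0.05. At an unadjusted edgeR p below 0.05 there were 3 of them, against 10.5% of all tested genes. In this list 10 of 14 had a log2 fold change above 0, with a median of 0.05, as over the 10 members,, and the widest values were those of Maf (0.25, FDR 0.391) and Batf (0.24, FDR 0.767). Of 24 tested immediate early genes outside the members, none passed in edgeR or DESeq2 and 1 had an unadjusted edgeR p below 0.05. Their median was 0.03, with 14 above 0. Cebpd, an early response C/EBP factor, stood at 0.33 (FDR 0.338) with 4.26 to 5.56 CPM in WT and 5.71 to 6.95 CPM in the Flox-labelled libraries, sharing 562 bases with Spidr on the opposite strand, and Nr4a3, an orphan nuclear receptor, at 0.19 (FDR 0.856).

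Among 16 kinases and serum response regulators upstream of these genes, 1 passed, in edgeR as in DESeq2. Over all 15388 tested genes edgeR passed 0.526% and DESeq2 198. At an unadjusted edgeR p below 0.05 there were 4 of the 16, against 10.5% of all tested genes. Elk3, an ETS cofactor of serum response factor, read 95.6, 97.4, 99.3 and 99.3 CPM in WT, against 85.8, 86.7, 88.5 and 91.4 CPM in the Flox-labelled libraries. Every Flox-labelled library was below every WT library, and Elk3 fell by 0.15 on the log2 scale (SE 0.03, edgeR FDR 0.046), a call that was kept in 8 of 19 alternative settings. It shares 316 bases, 6.9% of its length, with Cdk17 on the opposite strand. The list as a whole had a median of 0.02, which became -0.0058 once the Y-linked sum was added to the fit. Of 8 genes that restrain AP-1 or turn it over, none passed in edgeR or DESeq2 and none had an unadjusted p below 0.05, with Sirt1 at 0.09 (FDR 0.588) and Cop1, a ubiquitin ligase of Jun, at 0.06 (FDR 0.716).

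Genes with described AP-1 sites lay mostly below 0. Of 19 listed genes 16 were tested, and Mmp3 was at 0 in all 8 libraries. Of the 16, 13 had a log2 fold change below 0 and 3 above, the median was -0.11, and 6 had an unadjusted edgeR p below 0.05, against 10.5% of all tested genes. The gene that passed in edgeR, and in DESeq2, was Edn1, the precursor of the peptide endothelin-1, which read 9.99, 12.1, 12.1 and 14.5 CPM in WT, against 17.3, 19.8, 16.6 and 19.8 CPM in the Flox-labelled libraries. The groups did not overlap, and Edn1 rose by 0.59 on the log2 scale (SE 0.10, edgeR FDR 0.0328), a call kept in 12 of 19 alternative settings. It shares 35 bases with Gm47118 on the opposite strand. Heat shock genes, which rise with handling stress as early response genes do, had none of 8 past the threshold in edgeR and a median of 0.04. At an unadjusted edgeR p below 0.05 there was 1 of them, against 10.5% of all tested genes. DESeq2 passed 1 of them, against 198 of all 15388 genes. The gene passed by DESeq2 was Hspa1a, at 0.64 (edgeR FDR 0.112) without overlap of the groups. It shares 564 bases, 19.0% of its length, with Gm20481 on the opposite strand. The near-identical copy Hspa1b stood at 0.09 (edgeR FDR 0.906), and reads of these copies may be split uncertainly.

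Cell type markers were read over whole lists beside these values, and in bulk tissue fewer cells of a type and less RNA per cell cannot be told apart. The labelled tissue had the markers of ventricular cardiomyocytes, which summed to 43430 to 46770 CPM in WT and 42810 to 47830 CPM in the Flox-labelled libraries. Of these 9 markers 1 passed, in edgeR as in DESeq2, against 0.526% of all tested genes in edgeR. It was Nkx2-5, a cardiac homeodomain factor (log2 fold change 0.21, edgeR FDR 0.0194), which gave 0.08 (FDR 0.277) after the correction for GC content and length. Endothelial markers were below 0 in 10 of 12. Their sums were 1556 to 1630 CPM in WT and 1471 to 1602 CPM in the Flox-labelled libraries. None of them passed in edgeR, and 6, not all of them lower, had an unadjusted edgeR p below 0.05, against 10.5% of all tested genes. DESeq2 passed 2 of them, against 198 of all 15388 genes. Smooth muscle and pericyte markers were below 0 in 6 of 7 (547.4 to 589.8 CPM against 497.5 to 567.5 CPM) and fibroblast markers in 6 of 8 (5499 to 6492 CPM against 5306 to 6425 CPM). Epicardial markers were above 0 in 7 of 7 (161.9 to 172.6 CPM against 170.8 to 193.2 CPM), erythroid markers in 10 of 11 (4305 to 9407 CPM against 5888 to 10030 CPM) and macrophage markers in 6 of 9 (97.4 to 133.1 CPM against 104.4 to 149.1 CPM). In these 5 lists no marker passed in edgeR, and DESeq2 passed 1 fibroblast marker and no other. At an unadjusted edgeR p below 0.05 there were 3, 1, 2, 1 and 0, against 10.5% of all tested genes. Only 1 of 8 hepatocyte markers was abundant enough to be tested. Of 4 Y-linked genes 3 had an unadjusted edgeR p below 0.05, against 10.5% of all tested genes, with none past the threshold in edgeR or DESeq2. With the Y-linked sum added to the fit, the median log2 fold change went from -0.06 to 0.05 for fibroblast, from 0.03 to 0.15 for macrophage and from 0.12 to 0.52 for erythroid markers. The erythroid median was also -0.07 without WT 1 and -0.05 without Flox 4, and the macrophage median -0.05 and -0.10, so neither list had a steady direction. No marker was at 0 in all libraries, and the part of any of these cell types in the values of Jund, Jun or Fos was not tested.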

How the data were processed

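The deposited table holds gene-level expected counts, which the authors made with RSEM 1.3.1 after adapter trimming with cutadapt on GRCm38, per the submitters' processing notes; the aligner and the strand setting are not given in the sources used here. Reads were single, of 60 bases, from directional poly(A) libraries. Ensembl IDs were matched to GENCODE M21 (53360 of 53465).

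Expected counts were rounded, filtered with filterByExpr and scaled by TMM, and Flox-labelled and WT libraries were compared with the quasi-likelihood test of edgeR 4.0.16 (R 4.3.3), two-sided, with Benjamini-Hochberg adjustment over 15388 genes and a threshold of 0.05. CPM are TMM-scaled. The labels do not say whether replicates came from separate litters, so p-values measure only the spread between these libraries. No pair of libraries was alike within sampling noise. The fit was tested on simulated data with 15388 genes, of which 15234 passed the filter. There 80 of 100 genes changed by 1 on the log2 scale and 61 of 100 changed by 0.5 were recovered, with 7 false among 148 calls.

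The 10 genes and the lists were chosen with earlier results of these data known. Named were all members, genes sharing their exonic bases, list genes that passed or, in the lists around AP-1 with none, the 2 widest, 2 checks (Nrg1, Xist), and the 5 genes most like Jund and Fos with a mean log2 CPM of at least 1. Mmp3 was named after its values were seen. Alternatives were other scalings and filters, DESeq2 1.42.0, limma voom (3.58.1), a replicate block, a Y-linked covariate, a GC and length correction (lowess span 0.3), sums over overlapping genes and each library left out; those of Gm11175, Ccdc85b, Elk3, Edn1 and Nkx2-5 were added after their values were seen. Precision is limited by counting error in low genes and by 4 libraries per group.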

Additional observations from a re-analysis of the deposited data

Results flagged for a closer look

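In 38 groups of 4 libraries examined for a library far from the others, 1 stood out, against 1.9 that chance gives. It was Fos in WT 1, at 3.52 CPM, while the other WT libraries lay between 4.00 and 4.09 CPM. Flox 1 and Flox 4 lay between WT 1 and the other WT libraries, so the ranges of Fos overlap only through WT 1. Without WT 1 the log2 fold change of Fos was -0.42 instead of -0.37.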

How the results depend on the processing

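Over 19 alternatives the log2 fold change of Jund lay between 0.17 and 0.38 without a change of sign, but its FDR lay between 3.35e-05 and 0.179 and was below 0.05 in 8 of them. The number of members called, 1 in the fit with the group alone, was 0 with total-count scaling, limma voom, the Y-linked covariate, and the GC and length correction (4, 4, 3 and 3 at an unadjusted p below 0.05), 2 without a filter on low counts (Jun added) and 2 with overlapping genes summed (the Fosl1 sum added). When 1 library was left out it was 0 to 1, with Jund called without WT 1 and lost without each of the other 7. The count of all genes called, 81, was 338 without a filter, 198 by DESeq2, 16 with the Y-linked covariate (12 shared with the 81) and 11 (without Flox 3) to 142 (without Flox 4) when 1 library was left out. It was 47 without WT 1, 14 without WT 2, 20 without WT 3, 33 without WT 4, 32 without Flox 1 and 34 without Flox 2. The replicate block gave 93 genes (59 shared), with Jund at 0.30 (FDR 0.0126). Libraries with the same number had correlated deviations of 0.0447 to 0.121, against -0.0877 to 0.0195 for different numbers. Every library thus correlated best with its own number, a hint from the data and not from the labels, but not all values passed 0.1 and the numbers were not taken as a pairing.

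Signs turned for small values. With the Y-linked covariate Fosl2 was 0.047, Egr1 -0.010 and the Junb and Prdx2 sum 0.0053. With 1 library left out Egr1 ranged from -0.061 to 0.057, Fosb from -0.31 to 0.098, Fosl1 from -0.17 to 0.099 and Fosl2 from -0.053 to 0.0010. The cause was not tested. Where overlapping genes were summed, the values in place of Junb (-0.027) and Fosl1 (0.56) differ in sign from theirs by construction, since Prdx2 and Ccdc85b make up most of these sums. Jun (0.13 to 0.20), Atf3 (0.14 to 0.22), Fos (-0.49 to -0.19) and Ier2 (0.05 to 0.22) kept their direction in all 19 alternatives, and of these 4 only Jun had an FDR below 0.05, in 1 of them. The call of the Jund and Gm11175 sum was kept in 12 of 18 alternatives and that of the Fosl1 and Ccdc85b sum in 14 of 18.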
